A study of Homo sapiens with 74 samples.

Results

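The 3′ end of a gene is where its transcript is cut and given a poly(A) tail, and where RNA polymerase II slows down and leaves the template. The cleavage and polyadenylation specificity factor (CPSF) reads the poly(A) signal, most often AAUAAA, in the nascent RNA. CPSF4 is the CCCH zinc-finger subunit of that complex which, with WDR33, contacts the signal, and CPSF4L is its little-studied paralog. The question here was whether V5-tagged zinc-finger proteins (ZFPs), and CPSF4 and CPSF4L above all, had Cut&Run peaks on the DNA around 3′ ends. Cut&Run maps the DNA near a protein by tethering a nuclease to an antibody, here against the V5 tag.

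The peaks described here have a summit within 1 kb of the 3′ end of a protein-coding gene (hg38, GENCODE 44) and over 2 kb from every annotated transcription start site (TSS). Of 92122 peaks in 72 lists, 670 met both conditions, on 474 genes, and a further 652 peaks were set aside because they lay on the gene of a transfected open reading frame (ORF), on USP39 or on EEF1A1. The lists come from 36 ZFPs with 2 replicates each. Every library was from HEK293T, a human embryonic kidney cell line, 48 h after transfection with a plasmid that drives 1 V5-tagged ZFP from the EF1-alpha promoter, so the levels are not those of the endogenous proteins, and the plasmid itself carries ORF and EEF1A1 sequence. Peaks were called by the authors in each library against a mock IP from cells without a plasmid. The mock IP libraries were not analysed here. The lists held between 15 and 8702 peaks (median 631). Replicates were separate wells of 1 cell line, and p-values measure the spread between ZFPs in these cells.

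A few lists stood apart. In replicate 2 of TRIM55 and of ZMAT5, 96.3% and 98.7% of the peaks had a fold over mock between 1.9 and 2, whereas no other list had more than 5.26% of its peaks in that range. These lists gave 38 and 18 of the peaks at 3′ ends, and results are given without them where they count. Replicate 2 of ZC3H3 kept 6 peaks. The study's summary gives no Cut&Run target count for CPSF4, MBNL1, SNRPC, TRIM55, ZC3H3 or ZMAT5. It gives one for every other ZFP here. The study describes Cut&Run sets that passed its quality control, so the lists of these ZFPs may be ones it set aside. They are kept here, CPSF4 among them. The libraries labelled U2AF1 had no peaks on the exons of their own ORF and held 1 peak at a 3′ end between them.

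The 3′ ends on which CPSF4 had its strongest peaks carry ordinary poly(A) signals. They are shown as 30 bases of the coding strand (hg38) near the end of the gene, with the signal AATAAA or its variant ATTAAA in capitals, because this is the sequence that CPSF reads in the RNA:
NCF1 chr7:74789282-74789311, plus strand: cccgccaccctcAATAAAtgttgcttggag
GSTZ1 chr14:77331562-77331591, plus strand: aatttggcgtgaATTAAActgaagcccagg
RELA chr11:65653605-65653634, minus strand: ctactctgaactAATAAAtctgttgccaag
PEAK3 chr19:2274651-2274680, minus strand: tttctctaaacaAATAAAggtgcccactct
RTN2 chr19:45485297-45485326, minus strand: gatttacactgtAATAAAgactcctgtgga
KRT16 chr17:41609789-41609818, minus strand: tggtggtgggctAATAAAgctgactttctg

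One of these 2 hexamers stood in the last 60 bases of 75.1% of the 16077 eligible 3′ ends, that is, ends with at least some sequence that meets the rule, and of 73.2% of the 474 ends with a peak. No match was found there for RNF126, the single CPSF4L gene. The peak summits themselves fell on other sequence. Around the summits of the CPSF4 peaks, the 201-bp windows held neither hexamer on either strand (0 of 10). Windows placed every 100 bp along eligible 3′ ends held AATAAA in 31.1% and ATTAAA in 21.4%. At other peaks over 2 kb from a TSS it was 8.82% and 4.93%. At the 614 peaks at 3′ ends of all ZFPs but TRIM55 and ZMAT5 it was 4.4% and 1.63%. The 10 windows thus do not set CPSF4 apart from other ZFPs. The 30 bases at the middle summit are shown for 3 genes with peaks of many ZFPs, with each CG in capitals:
NCF1 chr7:74788868-74788897, plus strand: gggCGgagCGatccctaagaggCGgagtca
COPZ2 chr17:48025310-48025339, minus strand: ccctggagtgCGctgagcactgCGggaagc
ASAP2 chr2:9406247-9406276, plus strand: gtgtgtgtttgtcactgagtggacctctgt

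NCF1 and COPZ2 hold 3 and 2 CG dinucleotides there and ASAP2 holds 0. Of the other genes with peaks of many ZFPs, IL4I1 holds 5, PRDM9 also holds 0, and PRR7, SERTAD1 and GNG12 hold 1 each.

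CPSF4 had few peaks at 3′ ends, and CPSF4L had 1. The study's summary lists a Cut&Run target count for CPSF4L and none for CPSF4, whose lists may thus have failed its quality control. In CPSF4, 4 of 1594 peaks of replicate 1 lay at a 3′ end, a share of 0.251% (95% exact binomial interval 0.0684 to 0.641). In replicate 2 they were 6 of 935 (0.642%, interval 0.236 to 1.39). In CPSF4L they were 1 of 236 in replicate 1 (0.424%, interval 0.0107 to 2.34) and 0 of 125 in replicate 2, where a limit of 3 counts allows a share of up to 2.4% and the exact interval one of up to 2.91%. These intervals cover counting error only. At the same peaks moved along their chromosomes the shares were 1.02% and 0.845% for the CPSF4 replicates and 0.721% and 0.6% for CPSF4L, so each of the 4 lists was below its shifted share, though the intervals of 3 of the 4 reached it. The bar on peaks near a TSS lowers the observed share far more than the shifted one, since fewer shifted positions lie near a TSS.

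Shares in the other 34 ZFPs spanned the same range. Their mean over both replicates ran from 0 to 1.17%, with a median of 0.428%, and CPSF4 (mean 0.446%) stood 17th of 35 with CPSF4L left out, whereas CPSF4L (mean 0.212%) stood 25th with CPSF4 left out. CPSF4 differed from the mean of the others by -0.0108 percentage points (two-sided exact permutation test over 35 ZFPs, p = 1, adjusted p = 1). CPSF4L differed by -0.245 points (exact permutation p = 0.571, adjusted p = 0.751). For both together the difference was -0.128 points, from 0.329% against 0.457% ± 0.307 (SD, n = 34) in the others (exact permutation over 630 choices, p = 0.584, adjusted p = 0.751). With 1 ZFP against 34 the smallest p is 0.0286, and with 2 of 36 it is 0.00159. These p-values do not show that CPSF4 and CPSF4L act like the others.

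Peaks near a TSS cannot be at a 3′ end under the rule, so the share was also taken of the peaks over 2 kb from every TSS, called distal here. Of the distal peaks, 1.12% (4 of 356) and 1.6% (6 of 376) of the CPSF4 replicates and 0.847% (1 of 118) and 0% (0 of 89) of the CPSF4L replicates lay at a 3′ end. The shifted shares were 1.19% and 0.979% for CPSF4, and 0.855% and 0.7% for CPSF4L. CPSF4 was 12th and CPSF4L 24th of 36 by their means of 1.36% and 0.424%. The mean of both, 0.892%, was 0.273 points under the 1.16% ± 1.25 (SD, n = 34) of the others (exact permutation p = 0.843, adjusted p = 0.948).

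**Figure D1:**
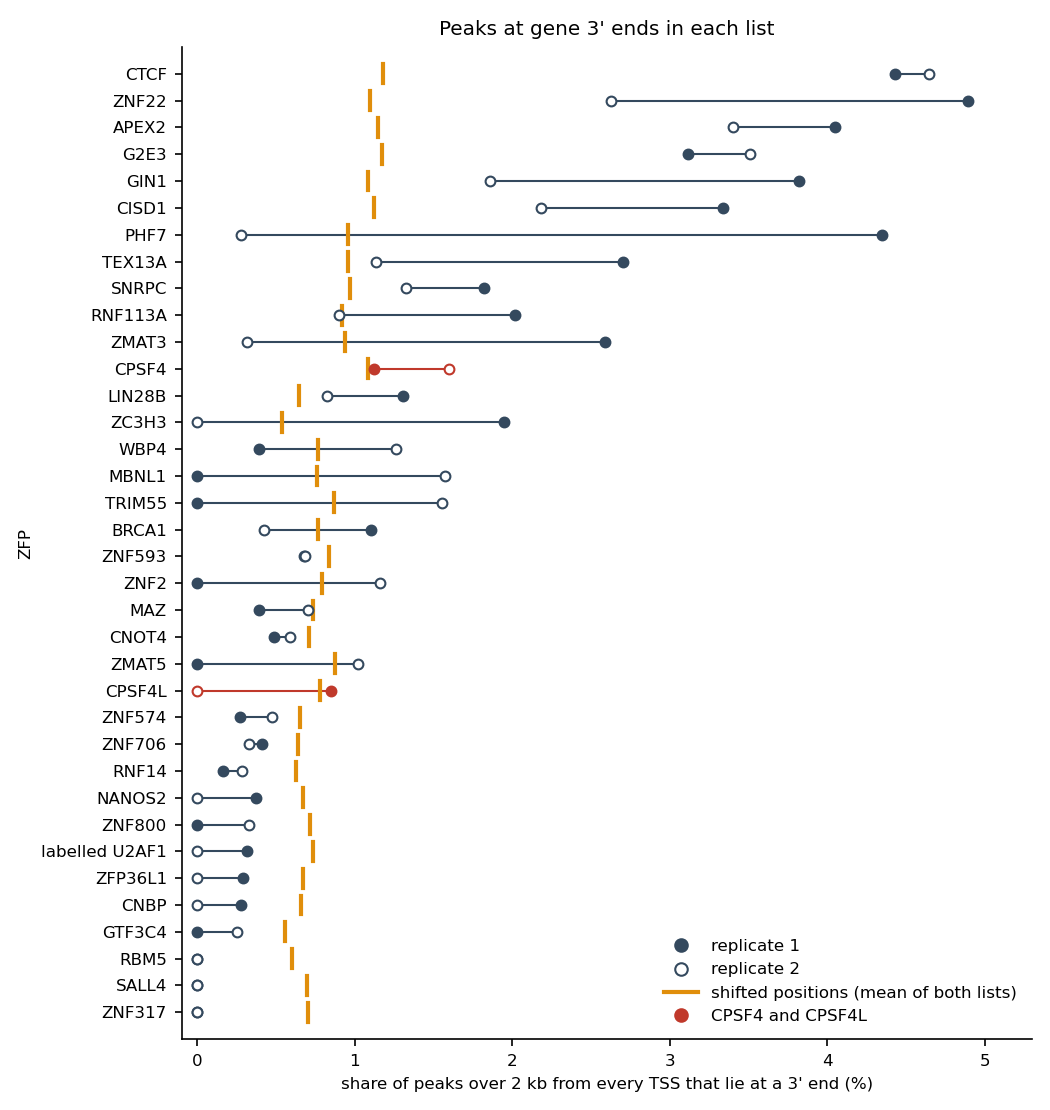
Share of distal peaks (over 2 kb from every TSS) that lie within 1 kb of a protein-coding 3′ end, in percent, for each ZFP. Filled and open circles are replicates 1 and 2, a line joins them, and the orange tick is the mean share of the same peaks at shifted positions. CPSF4 and CPSF4L, in red, sit 12th and 24th of the 36 ZFPs, and CTCF is at the top with 4.43% and 4.65%.

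The genes under the CPSF4 peaks did not recur between its replicates. Replicate 1 had its peaks at RELA, PEAK3, SBK3 and NCF1, and replicate 2 at GSTZ1, KRT16, GRIN2C, RTN2, SRC and MAMLD1, with 0 genes in common. CPSF4 thus had a peak at 0.0622% and CPSF4L at 0.00622% of the eligible 3′ ends. Elsewhere too most CPSF4 peaks were seen in 1 replicate only. A peak of the other replicate overlapped 33.5% of its other distal peaks and 16.1% of those within 1 kb of a TSS. With 10 peaks at 3′ ends, the lack of common genes is not read as a difference from these. NCF1, a cytosolic subunit of the phagocyte NADPH oxidase, had the strongest CPSF4 peak, 6.36-fold over mock, with the summit in its coding sequence 217 bp before the gene's end. NCF1 has near-identical pseudogene copies on the same chromosome, so reads there may have come from any copy. GSTZ1, an enzyme of tyrosine breakdown, followed at 5.75-fold, with the summit 473 bp before its end. RELA, the p65 subunit of NF-κB, had a 5.09-fold peak 736 bp past its end.

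PEAK3, a pseudokinase, had a 5.02-fold CPSF4 peak in its 3′ UTR, in sequence that another annotated coding gene shares. RTN2, a reticulon of the endoplasmic reticulum, had a 4.91-fold peak, also in the 3′ UTR, and KRT16, an epithelial keratin, a 4.82-fold peak in coding sequence. Over all 10, the summits were in coding exons (5), in 3′ UTRs (3) and downstream of the gene (2). NCF1, RELA, RTN2 and GRIN2C, 4 of these genes, also had peaks of 4 to 7 other ZFPs within 1 kb of the same end, and 6 had peaks of CPSF4 alone. For CPSF4L, RNF126, an E3 ubiquitin ligase, had a 7.24-fold peak 918 bp past its end in replicate 1 and none in replicate 2.

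Across the 36 ZFPs, peaks at 3′ ends were unevenly spread. CTCF, ZNF22, APEX2, G2E3, GIN1, CISD1 and PHF7, 7 ZFPs, gave 479 of the 670 (71.5%). Their lists were also the longest, with 4904, 7928, 9862, 7598, 5091, 11300 and 6981 peaks in that order, of 91470 kept. The count thus depends on list length, so shares of distal peaks are given below. CTCF, the insulator protein that anchors chromatin loops, had the highest mean share of distal peaks over its replicates, at 4.54%. It was 4.43% (36 of 813) in replicate 1 and 4.65% (21 of 452) in replicate 2. Its shifted peaks gave 1.2% and 1.16%. The replicates of CTCF were close to each other. ZNF22, a C2H2 protein, had 4.89% and 2.63%. APEX2, an abasic-site endonuclease, had 4.05% and 3.4%. G2E3, a ubiquitin ligase with PHD-type fingers, had 3.11% and 3.51%. CISD1, an iron-sulphur protein of the outer mitochondrial membrane, had 3.34% and 2.18%. For these 5 ZFPs the values of both replicates were over 2 times their shifted shares of 1 to 1.2%.

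In other ZFPs a replicate stood below that. GIN1 had 3.82% in replicate 1 and 1.86% in replicate 2. PHF7, a PHD-finger protein that acts on histones in the testis, had 52 of 1196 (4.35%) and then 1 of 363 (0.275%). The lists of PHF7 also differed elsewhere: 75.3% of the peaks of replicate 1 and 45.1% of those of replicate 2 lay within 1 kb of a TSS. ZMAT3, a p53 target that binds RNA, had 8 and 1 peaks, and ZC3H3, a CCCH protein of mRNA polyadenylation and export, 9 and 0, the latter in the list of 6 peaks. RBM5, SALL4 and ZNF317 had 0 in both lists, which were short, at 153 to 425 peaks. Shifted positions gave means of 0.75 and 2.5 such peaks in RBM5, 2.35 and 1.05 in SALL4, and 1.6 and 0.95 in ZNF317. Absence from 3′ ends cannot be read from such lists. In all, 18 of the 72 lists held none.

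The rule bars peaks near a TSS, where up to 77.7% of a list's peaks lay within 1 kb, whereas shifted positions mostly escape that bar, so the share of all peaks is pulled below the shifted one by the rule and its test supports nothing about 3′ ends. The mean over ZFPs was 0.45% and that of shifted peaks 0.718%, a difference of -0.268 points ± 0.207 (SD over 36 ZFPs) that was negative in 34 of 36 (two-sided sign-flip permutation test, p = 1e-05, which is the lower limit with 100000 draws, adjusted p = 9e-05). The exceptions were LIN28B and CTCF. With every peak weighted equally, and not every ZFP, the share was 0.732%. Of distal peaks, the mean share was 1.15% against 0.823% at shifted positions, a difference of 0.326 points ± 1.06 (SD, n = 36) that did not pass the test (permutation p = 0.0733, adjusted p = 0.165). It was positive in 16 ZFPs. Both replicates were above the shifted share in 10 ZFPs and below it in 16. In 16 of 72 lists the counting interval of the share lay wholly above the shifted share, among them both lists of CTCF, APEX2, CISD1, G2E3 and ZNF22, and in 1 list (ZNF800, replicate 1) wholly below.

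Among the peaks at 3′ ends, 63.4% (425 of 670) had a TSS within 2 to 5 kb, compared with 42.2% of the shifted ones, and with the limit raised to 5 kb the difference was -0.0131 points (permutation p = 0.882). The nearest summit kept was 2006 bp from a TSS, and one at 2000 bp was not. Against positions only 20, 50 and 100 kb to either side the difference was -0.163 points (permutation p = 0.0705), with peaks seen in both replicates -0.215 and with q under 1e-05 -0.233. Peaks near TSSs and gene-dense sequence thus moved with the share, and their part in it was not tested. Chromosome 19, which is dense in genes, held 18.8% of the peaks at 3′ ends, 6.59% of the eligible ends, 2.97% of the other distal peaks and 7.83% of the peaks within 1 kb of a TSS.

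Summits were scarce at the cleavage site itself. Within 200 bp of the annotated end lay 77 of the 670 summits (11.5%), whereas 20.3% of the shifted ones did. Without TRIM55 and ZMAT5 it was 68 of 614 (11.1%). In ZNF22 it was 2 of 66 (3.03%), in GIN1 3 of 47 (6.38%) and in G2E3 4 of 62 (6.45%), each below its shifted share of 20 to 20.6%. It was 8 of 53 (15.1%) against 19.3% in PHF7, and it was not below the shifted share in CTCF, with 14 of 57 (24.6%) against 20.4%, or in TEX13A, with 4 of 20 (20%) against 18.9%. These counts are given as a description, since the distance was chosen after the profile was seen.

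**Figure D2:**
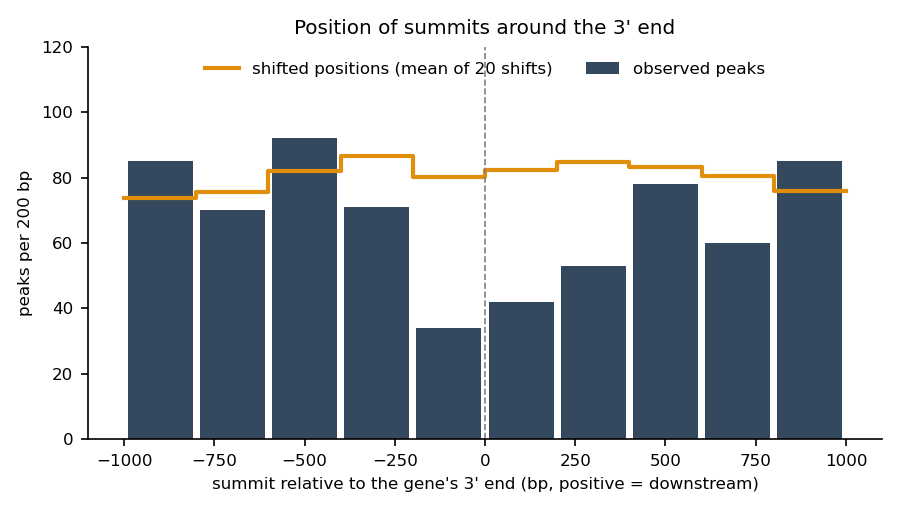
Number of summits per 200 bp from 1000 bp upstream to 1000 bp downstream of the gene's 3′ end; bars are the 670 peaks and the orange line is the mean of 20 sets of shifted positions. The bins on either side of the end hold 34 and 42 summits, the lowest of the 10, where shifted positions give 80.2 and 82.2.

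The peaks lay on both sides of the end. Summits inside the gene were 353 of 670 (52.7%). Over the 13 ZFPs with at least 10 such peaks, the mean share inside the gene was 54.7%, compared with 49.3% for shifted peaks, a difference of 5.38 points ± 11.7 (SD, n = 13) that did not pass the test (exact sign-flip permutation p = 0.124, adjusted p = 0.223). From replicate 2 alone it was 8.4 points over 8 ZFPs (exact sign-flip permutation p = 0.0156, unadjusted). CPSF4 had 8 of 10 inside (80%), and RNF113A, a spliceosomal ubiquitin ligase, had 28.6% of 14. By annotation, 317 summits (47.3%) were past the gene's end, 173 (25.8%) in its 3′ UTR, 125 (18.7%) in coding exons and 52 (7.76%) in introns. Of all 670, 121 also lay within another protein-coding gene.

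Sequence at the summits was richer in GC than the 3′ ends in general. The median GC content of the 201 bp around a summit was 62.7% (quartiles 56.2 and 67.7), where windows every 100 bp along eligible 3′ ends had 42.8%. Peaks within 1 kb of a TSS had 68.7%. The windows held a median of 7 CG dinucleotides, compared with 2 along eligible ends and 19 at TSS peaks. AATAAA on either strand was in 6.87% of the windows at 3′ ends and ATTAAA in 2.84%, below the windows along eligible ends. Without TRIM55 and ZMAT5 these shares were 4.4% and 1.63%. Peaks elsewhere were low in both hexamers too, with 2.28% and 1.83% within 1 kb of a TSS. None of the 670 windows was satellite-like (at least 5 copies of ATTCC or GGAAT, overlapping ones counted), a state that held for 25.9% of the other distal peaks.

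The peaks of TRIM55 and ZMAT5 were unlike the rest. TRIM55, a sarcomeric ubiquitin ligase, had a median GC content of 49.3% and AATAAA in 34.2% of its 38 windows, and ZMAT5, a subunit of the minor spliceosome, had 49% and 33.3% of 18, values near those of eligible ends in general. All 56 peaks of the pair had folds from 1.99 to 2.00. Without the pair the median GC content was 63.7%, and folds ran from 3.17 to 36.1.

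**Figure D3:**
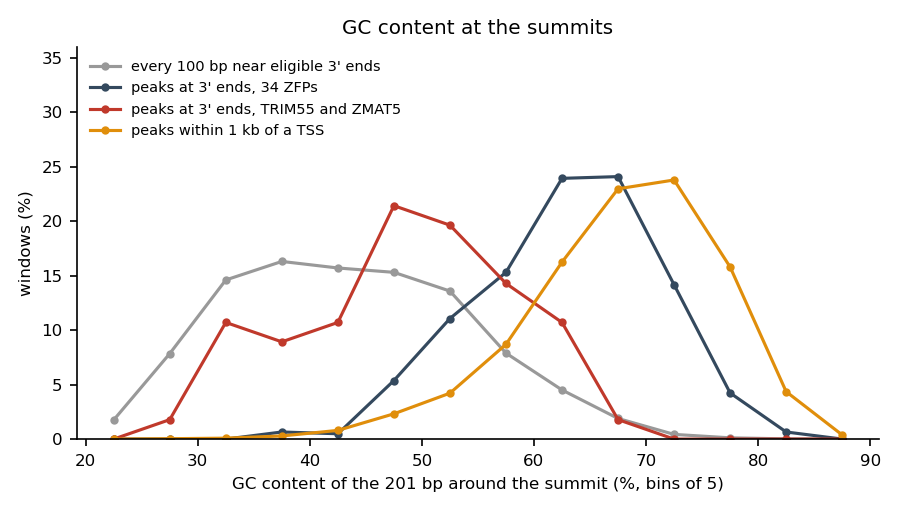
Distribution of GC content in the 201 bp around each summit, in bins of 5 percentage points, as a percentage of the windows of each set. Peaks at 3′ ends of 34 ZFPs have a median of 63.7% and lie near the peaks within 1 kb of a TSS, whereas the 56 peaks of TRIM55 and ZMAT5 lie near the windows placed along all eligible 3′ ends.

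Peaks at 3′ ends had folds much like those of other distal peaks and were seldom seen again. Their median fold over mock was 4.61, and 98.7% were under 8-fold, a share that was not taken over all peaks. The medians of whole lists, without replicate 2 of TRIM55 and of ZMAT5, ran from 3.16 to 15.9. Over the 8 ZFPs with at least 5 such peaks in each list, the median fold was close to that of other distal peaks of the same list, with a mean log2 ratio of 0.06 ± 0.05 (SD, n = 8), positive in 7 of 8 (exact sign-flip permutation p = 0.0234, adjusted p = 0.0703). Without satellite-like peaks the ratio was 0.011 (exact sign-flip permutation p = 0.625). In CTCF the median folds at 3′ ends were 5.17 and 5.66, those of other distal peaks 4.98 and 4.99, and those of peaks within 1 kb of a TSS 5.42 and 5.48. In RNF113A they were 4.15 and 5.08 at 3′ ends and 4.55 and 4.77 at other distal peaks, so its replicates moved in opposite directions.

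A peak at a 3′ end overlapped a peak of the other replicate less often than other distal peaks did. Over 13 ZFPs the mean share was 5.89% at 3′ ends and 21.9% at other distal peaks, a difference of -16 points ± 13.9 (SD, n = 13), lower in 10 ZFPs and equal in 2 (exact sign-flip permutation p = 0.00195, adjusted p = 0.00879). It was 0 in CPSF4, PHF7, RNF113A, SNRPC, TEX13A, TRIM55 and ZMAT5. CTCF was the exception, with 33.3% of 57 peaks at 3′ ends and 31.1% of other distal peaks seen in both. In APEX2 the shares were 9.64% and 18.2%, in G2E3 11.3% and 14.7%, and in GIN1 4.26% and 34%. Without satellite-like peaks, which recurred among the other distal peaks, the difference was -11.5 points (exact sign-flip permutation p = 0.00293).

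Genes with a peak at the 3′ end in any list were 474 of the 16077 eligible ones (2.95%), and those of the 34 ZFPs other than CPSF4 and CPSF4L were 2.91%. With the same ZFP required in both replicates, 19 genes were left (0.118%), in 27 pairs of a gene and a ZFP out of 635. CTCF gave 8 of these pairs, CISD1 6, APEX2 4, G2E3 3, ZNF22 and ZNF574 2 each, and GIN1 and ZMAT3 1 each. CPSF4 and CPSF4L gave none.

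The strongest of these were CTCF peaks. At FEV, an ETS factor of serotonin neurons (chr2:218981087-218985184, minus strand), the CTCF folds were 11.7 and 8.25, with the summits 994 and 997 bp past the end, just within the 1 kb limit. At PRR7, a proline-rich membrane protein (chr5:177446445-177456286, plus strand), CTCF had 2 peaks in each replicate. The downstream peak had its summit 131 and 144 bp past the end in replicates 1 and 2, with folds of 9.73 and 5.9. The upstream summits stood 950 and 723 bp before the end, with folds of 7.95 and 7.66. The highest folds of the 2 replicates thus came from different sites. At RTN2 the CTCF folds were 6.55 and 11.6, with summits 210 and 198 bp before the end. The replicates thus placed their summits within 20 bp of each other at FEV, at RTN2 and at the downstream PRR7 peak.

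Other CTCF genes were STAC3, an adaptor of muscle excitation-contraction coupling (highest folds 6.18 and 7.48), IL4I1, a secreted amino acid oxidase (6.38 and 5.48), UNC13D, a factor of granule release (5.33 and 5.99), and ZNF385A (4.08 and 5.91). At STAC3 these folds were at different sites, 323 bp before the end in replicate 1 and 412 bp past it in replicate 2. Replicate 1 also had a 5.5-fold peak 232 bp past the end. The core of the CTCF motif, spelled CCA, any 2 bases, AG, any 2 bases and GGC on either strand, was in the window of 7 of 57 CTCF peaks at 3′ ends (12.3%), of 16 of 613 such peaks of other ZFPs (2.61%), of 7.22% of all CTCF peaks and of 0.807% of windows along eligible 3′ ends. Among the CTCF genes named here it was found only at ZNF385A, 16 and 73 bp from the summits of replicates 1 and 2. ZNF385A also had peaks of APEX2, G2E3 and PHF7 at this end. Only this exact spelling was searched, and likeness to the full CTCF motif was not scored. The match is printed in capitals:
ZNF385A chr12:54368831-54368860, minus strand: gccacaactCCACAAGGCGGCgccaacgac

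Other ZFPs recurred at other genes. CISD1 had folds of 6.62 and 7.61 at VCX3B, a member of a repeated X-linked testis gene family whose copies share sequence, so the reads cannot be placed with certainty. ZNF22 had 5.55 and 5.38 at RELA, with the highest summits 855 and 897 bp past the end. APEX2 had 5.49 and 5.3 at NCF1. G2E3 had 4.5 and 4.86 at RTN2, in the 3′ UTR. These genes were chosen for their fold in both replicates, which favours like values. Elsewhere the folds of a pair lay further apart, as for APEX2 at COPZ2 (3.97 and 7.37) and CISD1 at DIRAS1 (4.32 and 7.73).

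Most genes were hit once, and a few by many ZFPs. A single ZFP had a peak at 390 of the 474 genes, and 3 or more at 35. NCF1 had peaks of 8 ZFPs in 10 lists (folds 4.53 to 6.73), with summits 217 to 799 bp before the end. IL4I1 had 7 ZFPs (4.64 to 7.01), with all summits in coding exons 547 to 855 bp before the end, and the nearest TSS was 2026 bp away. PRR7 also had 7 (3.73 to 9.73). COPZ2, a subunit of the COPI coat, had 6 (3.97 to 9.53), SERTAD1, a regulator of CDK4, had 6 (4.02 to 7.17) downstream of the gene, and GNG12, a G-protein gamma subunit, had 6 (4.19 to 8.19), all downstream and 15101 bp or more from a TSS. PRDM9, the histone methyltransferase that places meiotic recombination, had 6 (3.17 to 6.2) over its last coding exon, which encodes a zinc-finger array of near-identical repeats.

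ASAP2, an Arf GTPase-activating protein, had peaks of other ZFPs. Its 7 ZFPs were BRCA1, GTF3C4, MAZ, ZNF574, ZNF593, ZNF706 and ZNF800, and of these only ZNF593 had a peak at any of the other 7 genes. The folds were 3.17 to 5.94, and the summits lay within 521 to 601 bp past the end, inside the neighbouring gene ITGB1BP1, at 2015 bp or more from a TSS. GC content there was 50.7 to 51.7%, within the 46.8 to 59.7% of GNG12 and below the 70.1 to 74.1% of NCF1. Nothing in the labels ties these ZFPs to a batch, so a shared batch or mock could not be checked.

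**Figure D4:**
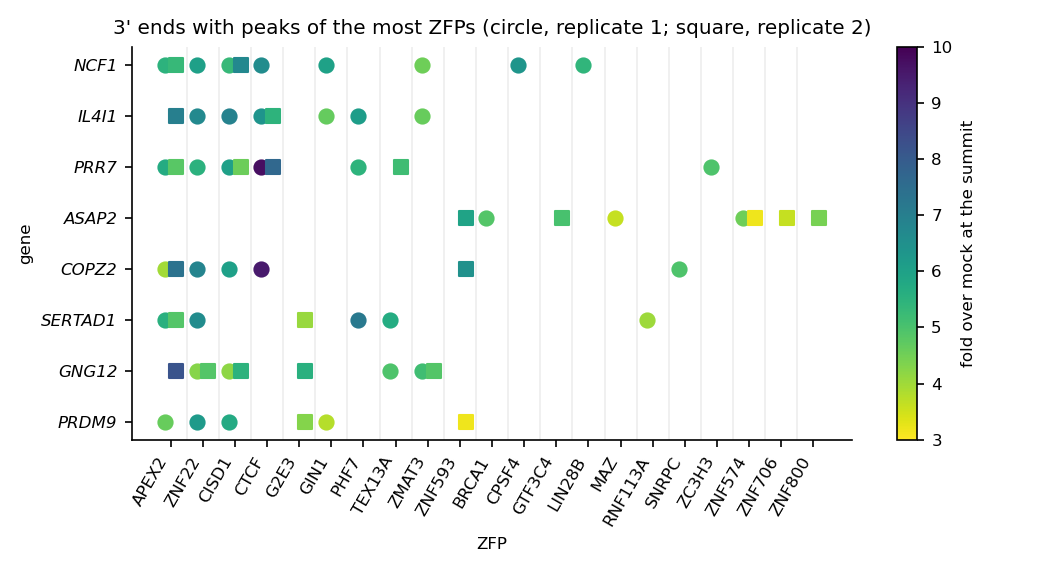
The 8 genes with peaks of the most ZFPs at their 3′ ends (rows) against the ZFPs (columns); circles are replicate 1, squares replicate 2, and the colour is the highest fold over mock in that list. APEX2, ZNF22 and CISD1 recur over most rows, whereas ASAP2 is marked by BRCA1, GTF3C4, MAZ, ZNF574, ZNF593, ZNF706 and ZNF800. The lists of APEX2, ZNF22 and CISD1 were also the longest, with 9862, 7928 and 11300 peaks kept over both replicates.

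The 2 highest folds of all lay within other annotated genes. RNF113A replicate 1 had 36.1-fold at ENSG00000256566 on chromosome 20, within SNRPB, which encodes a core spliceosomal protein. LIN28B replicate 2 had 31.4-fold at SLC9B1, within CISD2, a gene whose ORF was also transfected in the study but has no list here. Neither was seen in the other replicate.

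Gene families were counted by their eligible 3′ ends with a peak in any list, beside the 2.95% of all genes, with no test. C2H2 zinc-finger family genes had 13 of 522 (2.49%), among them ZNF385A and ZSCAN10. Ribosomal protein genes, taken by name, had 6 of 53 (11.3%): RPL36 and RPS19 (ZNF22, 5.09 and 5.25-fold), RPS14 (GIN1, 4.97-fold), RPS4X (G2E3, 4.15-fold), RPS26 (TRIM55, 2.00-fold) and RPS19BP1 (PHF7, 5.64-fold), the last of which encodes no ribosomal protein. Each came from a single list. Immediate early genes had 1 of 18 (DUSP1, TEX13A) and HOX cluster genes 1 of 21 (HOXD13, ZC3H3). None was seen at the eligible 3′ ends of cleavage and polyadenylation factors (16), heat shock chaperones (17), protocadherins (28) or replication-dependent histones (13).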

How the data were processed

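Cut&Run libraries from V5-tagged ZFPs in HEK293T cells were sequenced to about 10M paired-end reads per the labels. The submitters' processing notes name Trimmomatic 0.36, Bowtie2 2.3.5.1, Picard 0.1.8 and MACS2 2.2.7.1 on hg38. The authors called narrow peaks in each library against a mock IP of the same batch at an FDR of 0.05, and deposited for each summit the fold over mock (a ratio) and −log10 p and q values. Depth of the single libraries is not in the lists.

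Summits were compared with GENCODE 44 ends and TSSs, and with the same peaks moved around each chromosome by 20 fixed steps of 1/21 of its length. Differences were tested over ZFPs by sign-flip or label permutation, two-sided, exact or with 100000 draws, and adjusted by Benjamini-Hochberg over 9 tests. Genes named were, by rule, up to 6 of CPSF4 and CPSF4L each, the 8 with the most ZFPs, the 10 with the highest fold in both replicates and the first of the 5 ZFPs with the most peaks; others were named after their values were seen. An item under the rule is not reported here. The members and gene lists were chosen with earlier results of these data known. The classification and the tests were tested on simulated data. Python 3.11.15, numpy, scipy and pysam were used.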

Additional observations from a re-analysis of the deposited data

How the results depend on the processing

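Values are differences in percentage points unless said otherwise, and each p is from the same permutation test as the main one. The share of all peaks stayed below the shifted share under every alternative run, but each keeps a bar on peaks near a TSS, which pulls it that way, so this says nothing about its stability. The share of distal peaks did not keep its sign. It was -0.163 with shifts of 20, 50 and 100 kb, -0.0131 over 5 kb from every TSS, -0.215 with peaks of both replicates and -0.233 with q under 1e-05, none of them past the test, whereas it passed at 0.386 with no gene left out, 0.479 with protein-coding TSSs only and 0.616 without satellite-like peaks. None of the comparisons of CPSF4 and CPSF4L with the others passed under any alternative, and their signs turned in several. CPSF4 was 0.00978 above the others with the ends of all transcripts, 0.0482 with no gene left out, 0.187 with protein-coding TSSs only and 0.305 with a window of 2 kb. CPSF4L was 0.341, 0.316 and 0.488 above with all transcript ends, no gene left out and q under 1e-05. Both together were 0.175, 0.182, 0.179 and 0.0854 above with all transcript ends, no gene left out, q under 1e-05 and the wider window, and, of distal peaks, 0.119, 0.2997 and 0.278 with all transcript ends, no gene left out and the wider window. The cause was not tested.

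The log2 ratio of folds was no longer past an unadjusted p of 0.05 over 5 kb from every TSS (0.10), with peaks of both replicates (0.21) or with q under 1e-05 (0.13), which left 5, 2 and 1 ZFPs, too few for the test to pass, nor without satellite-like peaks (0.011 over 8 ZFPs). The lower overlap between replicates was -15.7 with q under 1e-05, where 2 ZFPs were left and no test could pass, and passed under all the other alternatives. The share of summits inside the gene passed at 6.12 with a window of 2 kb. Genes found in both replicates of a ZFP were 19 and became 49 with that window, 47 with all transcript ends, 35 with protein-coding TSSs only, and 4 both over 5 kb from every TSS and with q under 1e-05. With 1 replicate left out, the CPSF4 difference ran from -0.187 to 0.165 and the share inside the gene from 5.09 to 8.4, which passed without replicate 1. Leaving out TRIM55 and ZMAT5, or the libraries labelled U2AF1, both chosen after seeing the data, changed no sign and no side of the test.

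Replicate numbers were shared between ZFPs, but nothing says that a number pairs the samples. With the replicate block each list is a unit, and in comparisons between groups of ZFPs the labels move within a number. The distal difference of 0.326 passed over 72 lists (sign-flip permutation p = 0.0209), but not over 36 ZFPs (p = 0.0733, same test). The test over lists counts those of the same ZFP as independent, so its p may be too small and no conclusion is drawn from it. No other call changed. Precision was limited by the small number of peaks at 3′ ends in most lists.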
